A study of Mus musculus with 6 samples.

Results

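Tumor endothelial cells, the cells that line the blood vessels and lymphatic vessels of the mammary tumor, made up 1287 of the 17562 tumor cells that passed the quality limits (7.33%), and of 58561 cells deposited for the whole series. They were chosen by their own transcripts. A cell was taken when its transcripts of Pecam1, Cdh5 and Emcn summed to 4 or more unique molecular identifiers (UMIs, the tags that count single captured RNA molecules). It also had no Ptprc UMI, fewer than 20 collagen I UMIs (Col1a1 and Col1a2) and no more than 2 UMIs of the complement genes C1qa, C1qb and C1qc, which mark leukocytes, fibroblasts and macrophages in that order. The quality limits kept cells with 200 to 4000 genes and at most 25% mitochondrial UMIs.

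The study asked how the way a solid tissue is taken apart changes the cells recovered from it. Mammary tumor was minced and digested with type I collagenase in every condition, and the tumors came from female MMTV-PyMT mice of 10 weeks, in which a mammary promoter drives the polyoma middle T oncogene in the epithelium. All suspensions then had DNase I, lysis of red blood cells and a sort for SytoxBlue-negative live cells before droplet single-cell RNA sequencing. The control was a conventional digest of 60 min. The other 2 libraries came from a microfluidic platform that pumps enzyme through the minced tissue and passes the eluate once through a dissociation and filter device, and they hold the cells collected at its 15 min and 60 min intervals. In the interval format the cells freed first are washed out, the enzyme is replaced and digestion of the remaining tissue goes on. Kidney of 12 week old C57BL/6 males was processed the same way in the other 3 libraries. Each condition is 1 library, so no test between conditions can be made. The intervals given here are 95% exact Poisson or binomial intervals, or intervals of a ratio of counts or shares. They cover counting error only, and a difference between conditions cannot be told apart from a difference between libraries or tissue pieces.

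Endothelial cells form a single layer held together by VE-cadherin and PECAM-1 and anchored to a basement membrane of collagen IV and laminin, so they have to be freed from that sheet before they can be counted. Under inflammatory signals venular endothelium carries P-selectin, E-selectin and ICAM-1 to its surface and catches passing leukocytes, and NF-kB is the transcription factor best known for switching these genes on. In growing tumors, VEGF and Notch signals set apart tip cells, which lead new sprouts, from the arterial, capillary and venous cells behind them.

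The control yielded 283 endothelial cells of 5736 kept cells, a share of 4.93% (interval 4.39 to 5.53%). The 15 min platform library yielded 247 of 5802, or 4.26% (3.75 to 4.81%). The 60 min platform library yielded 757 of 6024, or 12.6% (11.7 to 13.4%). The 60 min interval therefore stood apart from both others, at 2.55 times the control share (2.23 to 2.91) and 2.95 times the 15 min share (2.57 to 3.39). The 15 min share was 0.863 times the control share (0.730 to 1.02), a difference of -0.677 percentage points with an interval of -1.44 to 0.088 that includes 0. Under 8 other ways to choose the cells, among them clusters in place of the UMI rule, the 60 min share lay between 12.0 and 15.1%, while the other libraries lay between 3.97 and 6.36%.

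**Figure D1:**
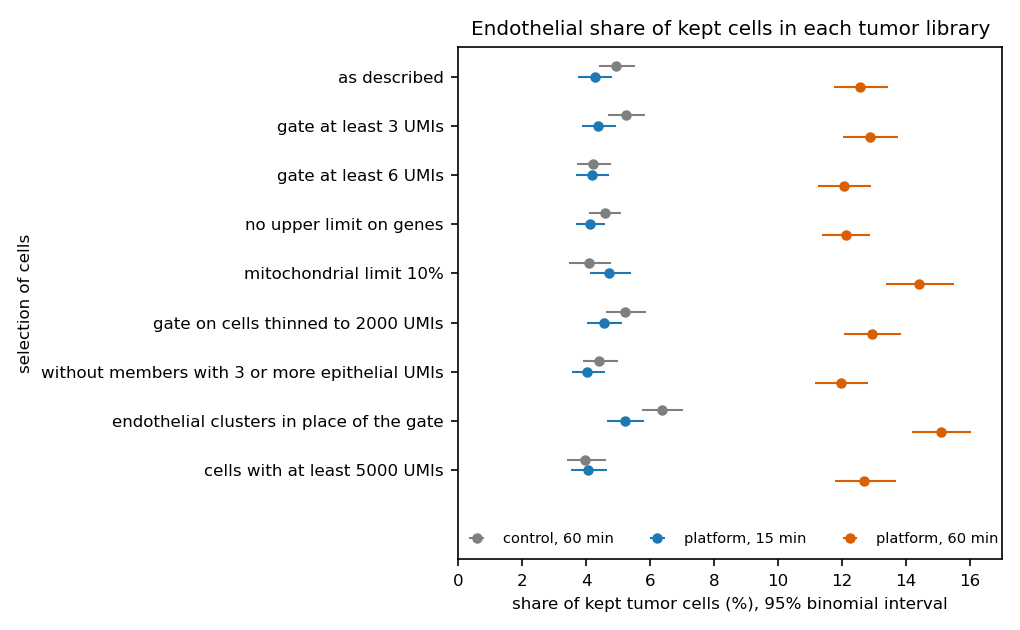
Share of kept tumor cells that met the endothelial rule, in percent, for each library under the rule as described (top line) and under 8 other selections; points are shares and bars exact 95% binomial intervals. The 60 min platform library sits at 12.6% and the control and 15 min platform libraries at 4.93% and 4.26%, and no selection brings the 60 min library down to either of them.

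The members were not captured equally deeply. Median UMIs per member came to 5466 (control), 7809 (15 min) and 8432 (60 min), and median genes to 2114, 2763 and 2661. Mitochondrial transcripts took a median of 9.44% of UMIs in control cells against 6.05% and 5.94% on the platform. The rule's own sum of Pecam1, Cdh5 and Emcn had a median of 15, 27 and 24 UMIs. Control members therefore lay nearest to its limit: 20 of them held exactly 4 UMIs and 17 cells just outside held 3, against 3 and 6 cells at 15 min and 15 and 18 at 60 min. Of the cells that met the sum, 44 were left out for a Ptprc UMI, 2 for collagen and 16 for C1q UMIs, counting each reason separately. No cell barcode was shared between the members of any pair of libraries.

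The label was checked mainly against genes that the rule did not use, as a description, since the same cells were chosen on the endothelial transcripts they hold. Over all other kept tumor cells, the gene with the highest ratio was Plvap, which forms the diaphragms of fenestrated endothelium. Levels are given in CPM, a gene's UMIs summed over the members of a library per 1000000 of their UMIs. Plvap stood at 1717 CPM in control members and at 1753 and 2050 CPM in those of the 15 and 60 min intervals, against a mean of 7.46 CPM in other cells. Gpihbp1, the endothelial anchor of lipoprotein lipase, measured 1199, 1461 and 1190 CPM. Egfl7, a protein secreted by endothelium, measured 1492, 1645 and 1189 CPM, and Kdr, the main VEGF receptor, 661, 800 and 476 CPM. The 20 genes with the highest ratios lay 56.6-fold or more above the other cells, with 5 CPM added to both sides. They include the rule's own 3 genes, and the others include Fabp4, Aqp1, Flt1, Cldn5, Esam and Col4a1. Markers of lymphocytes were near 0, with summed levels of 2.91 to 10.3 CPM per library over 9 genes. Those of fibroblasts summed to 23.6 to 85.6 CPM over 9 genes. Macrophage markers summed to 754, 700 and 793 CPM over 12 genes, against 17527, 14776 and 30620 CPM in the other cells of the same libraries, and Apoe alone gave 644, 626 and 711 CPM. The 12 include C1qa, C1qb and C1qc, and the 9 fibroblast genes include Col1a1 and Col1a2, all limited by the rule. Cells with a Ptprc UMI were also left out beforehand, so these low sums were partly set by the selection. The 10 pericyte markers summed to 164, 160 and 212 CPM, against 67.3, 102 and 256 CPM in the other cells. Epithelial transcripts differed more between the member sets. The 12 epithelial genes summed to 3579 CPM in control members, 1299 CPM at 15 min and 2016 CPM at 60 min, against 30194, 35807 and 20485 CPM in the other cells of the same libraries. Members with 3 or more UMIs of Epcam, Krt8 and Krt18 together made up 10.6%, 5.26% and 4.89% of the 3 libraries.

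To compare the libraries gene by gene, a gene was called apart when its CPM, with 5 CPM added, differed at least 2-fold, among 5881 genes with a mean of at least 20 CPM. With 1 library a side this is a rule of size and not a test. The median gene lay at a log2 ratio of 0.11 for 15 min over control, -0.05 for 60 min over control and -0.18 for 60 min over 15 min. At 15 min, 14 genes were called higher than in the control (0.238%) and 72 lower (1.22%). At 60 min, 26 were called higher than in the control (0.442%) and 15 lower (0.255%). Between both platform intervals, 103 genes were called higher at 60 min (1.75%) and 18 lower (0.306%). These comparisons share libraries, the control in the first and second and each interval in the third, so they are not independent of each other.

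The genes of NF-kB signaling had the median furthest from 0 in all 3 comparisons among the pathway lists with 5 or more measured genes. Of 15 measured members, 0 were called higher at 15 min than in the control and 7 lower, with a median log2 ratio of -0.69. At 60 min, 5 were called higher than in the control and 0 lower, with a median of 0.84. Between the platform intervals, 12 of 15 genes were called higher at 60 min and 14 of 15 lay above 1, with a median of 1.97. The list thus ran from the 15 min interval at the low end, through the control, to the 60 min interval at the high end, in a range where the median of all genes moved by 0.18 or less. Nfkbia, the inhibitor that NF-kB switches on to limit itself, measured 859 CPM in the control, 378 CPM at 15 min and 1493 CPM at 60 min. The 60 min level was 3.95 times the 15 min level (3.67 to 4.26). Tnfaip3, the A20 enzyme of the same feedback, measured 25.6, 14.4 and 69.9 CPM. Socs3, a brake on cytokine receptors, measured 522, 470 and 1008 CPM.

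Among the secreted members, Cxcl1, a neutrophil chemokine, measured 71.2 CPM in the control, 25.1 CPM at 15 min and 324 CPM at 60 min, and its 60 min level was 4.56 times the control level (3.80 to 5.50). Its 3 values did not overlap in their counting intervals, and the gene was found in 36, 21 and 281 members. Il6, a cytokine of the acute phase, was alike in the first 2 libraries at 14.2 and 12.3 CPM and reached 98.0 CPM at 60 min. Cxcl10, a T cell chemokine, behaved differently. It measured 58.7 CPM in the control and 66.6 CPM at 60 min, a ratio of 1.13 (0.914 to 1.42), and only 2.05 CPM at 15 min, from 4 UMIs. Csf3, the granulocyte growth factor, had 242 UMIs in the control, 0 in the 247 cells at 15 min and 932 at 60 min. The 60 min level was at least 92.9-fold higher than the 3 UMIs that a count of 0 allows at 15 min. The control value rested on few cells, since 161 of its 242 UMIs came from 1 cell, while 83 cells carried the gene at 60 min. Tnfaip2 went the other way, at 101, 138 and 83.3 CPM. The other kept cells of these libraries differed as well: Cxcl1 measured 448, 70.0 and 513 CPM in them, and Nfkbia 859, 488 and 1222 CPM. Epithelial transcripts also differed between the member sets, as given above, and their part in these levels was not tested.

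Promoter sequences are shown for the genes that carried the contrast, with 150 bases before the transcription start in RefSeq's annotation of GRCm38.p6, written 5′ to 3′ on the gene's strand. Capitals mark matches on either strand to a form of the NF-kB site that reads GGGA, any 2 bases, then TTCC. Nfkbia lies at chr12:55492648-55492797 on the minus strand, Cxcl1 at chr5:90891095-90891244 on the plus strand and Il6 at chr5:30012964-30013113 on the plus strand.
Nfkbia: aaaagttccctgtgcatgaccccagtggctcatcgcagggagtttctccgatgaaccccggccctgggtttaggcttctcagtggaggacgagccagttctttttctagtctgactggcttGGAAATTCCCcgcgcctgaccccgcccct
Cxcl1: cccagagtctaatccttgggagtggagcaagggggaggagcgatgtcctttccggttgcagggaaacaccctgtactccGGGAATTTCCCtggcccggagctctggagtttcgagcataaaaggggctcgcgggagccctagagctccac
Il6: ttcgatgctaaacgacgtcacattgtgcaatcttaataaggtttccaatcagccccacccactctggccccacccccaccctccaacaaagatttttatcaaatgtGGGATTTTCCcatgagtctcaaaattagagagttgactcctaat
The capitals of Cxcl1 cover 2 overlapping matches, 1 on each strand. Of the 18 genes in the NF-kB list, 12 had a promoter window in RefSeq, from 250 bases before to 50 after the start, and 5 of those held the motif: Cxcl1, Cxcl10, Cxcl2, Il6 and Nfkbia. Over all 32851 windows, 482 did (1.47%). Of the 12 genes in the leukocyte adhesion list described next, 7 had a window, and only that of Madcam1 held the motif. A match describes the letters in the window and says nothing of binding in these cells.

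The leukocyte adhesion list holds receptors and ligands at the cell surface, and Icam1, Vcam1 and Sele stand in both lists. Of 11 measured members, 4 were called higher at 60 min than in the control and 0 lower, with a median log2 ratio of 0.35, and 5 were called higher than at 15 min. At 15 min, 0 were higher and 2 lower than in the control. Icam1 (chr9:21015985-21028817), the ligand of leukocyte integrins, measured 333 CPM in the control, 118 CPM at 15 min and 724 CPM at 60 min. Its control level was 2.82 times the 15 min level (2.42 to 3.30), and its 60 min level was 2.18 times the control level and 6.14 times the 15 min level (5.38 to 7.04). Selp (chr1:164115264-164150026), the P-selectin gene, measured 215, 129 and 610 CPM, from 378, 252 and 3975 UMIs. Selp at 60 min was 2.83 times the control (2.55 to 3.16) and 4.72 times the 15 min level (4.15 to 5.38).

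Sele (chr1:164048234-164057677), the E-selectin gene, measured 134, 55.4 and 263 CPM and lay just under the limit of 2-fold against the control, with a ratio of 1.97. Vcam1, the ligand of integrin VLA-4, measured 16.5, 24.1 and 69.9 CPM, and Ackr1, a chemokine receptor of venules, 41.0, 40.5 and 102 CPM. For Vcam1 and Ackr1 the 15 min library thus matched the control more nearly than for Icam1 and Sele. The adhesion genes that also act at resting endothelial junctions lay closer together. Icam2 measured 364, 442 and 343 CPM, Cd34 811, 1097 and 753 CPM, and Jam2 82.0, 77.9 and 106 CPM.

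**Figure D2:**
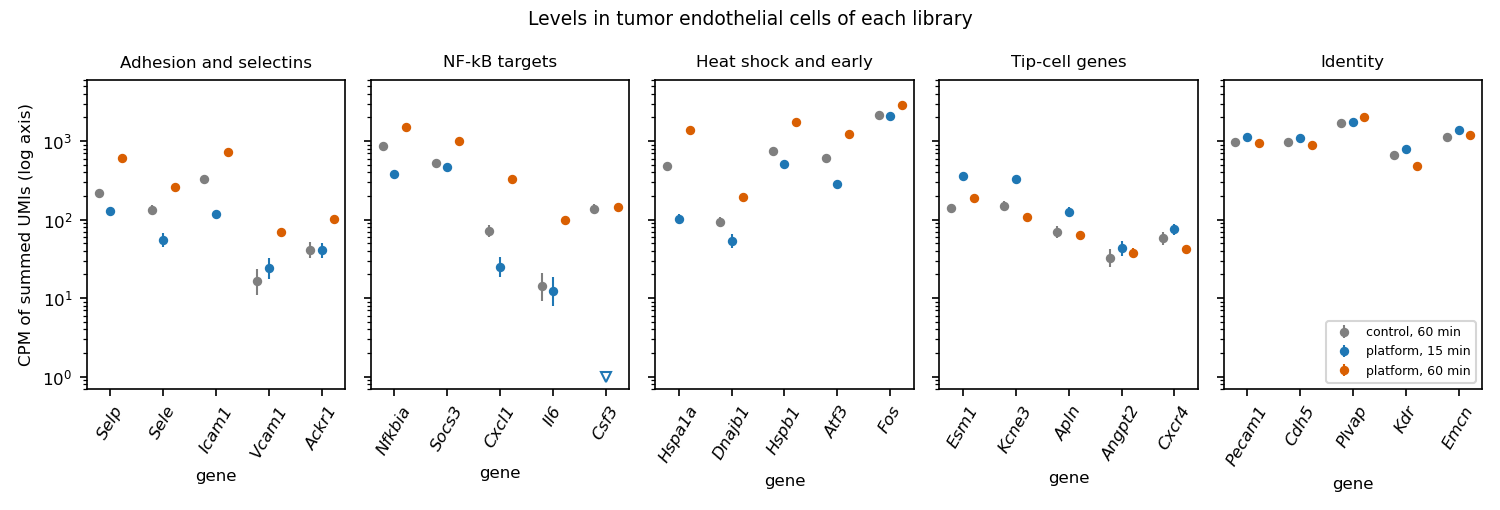
Levels of named genes in the endothelial cells of each library, in CPM on a log axis, with exact 95% Poisson intervals as bars; each point is 1 library and the open triangle marks Csf3 at 0 UMIs. Icam1 lies at 118 CPM at 15 min, 333 CPM in the control and 724 CPM at 60 min, and Esm1 runs in another order, with 361 CPM at 15 min above 141 and 187 CPM.

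Because deeper cells show more genes, the share of cells with at least 1 UMI was also taken after thinning each cell to 2000 UMIs, which left 267, 244 and 739 members. Selp was then found in 13.9% of control members, 12.3% at 15 min and 30.0% at 60 min, and in 24.4%, 21.1% and 42.3% before thinning. In epithelial tumor cells (10 or more UMIs of Epcam, Krt8 and Krt18), which should lack it, the thinned share was 0, 0.0269 and 0.0880%, at median depths of 9180, 10125 and 9781 UMIs. Icam1 was found in 27.3%, 14.8% and 45.9% of thinned members, against 38.9%, 31.6% and 64.2% before thinning. For Icam1 the thinned epithelial shares were 2.73%, 1.21% and 4.01%. At equal depth the 60 min library therefore differed from both others in the number of cells with either transcript. For Selp the thinned shares of the control (9.95 to 18.6%) and of 15 min (8.45 to 17.1%) overlapped in their intervals. Whether more members are of a kind that carries the gene, or each carries more of it, is taken up with the subclusters.

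Heat shock genes followed the same order of libraries. Of 13 measured, 4 were called higher at 60 min than in the control, 0 lower, with a median log2 ratio of 0.55. At 15 min, 0 were higher and 2 lower than in the control, with a median of -0.54. Between the platform intervals, 60 min was called higher in 6 of 13 genes, with a median of 0.84, and every one of the 13 lay above 1. Hspa1a, the inducible HSP70 chaperone, measured 486 CPM in the control, 102 CPM at 15 min and 1375 CPM at 60 min, so that the 60 min level was 13.5 times the 15 min level (11.7 to 15.6). Hspa1b measured 203, 62.5 and 558 CPM. Hspb1, a small chaperone that binds actin, measured 753, 515 and 1750 CPM, and Dnajb1, the partner of HSP70, 94.0, 53.3 and 195 CPM. Among the constitutive members, Hsp90ab1 and Hspa5 lay closer together. Hsp90ab1 measured 2499, 2390 and 2738 CPM, and Hspa5, the chaperone of the endoplasmic reticulum, 932, 747 and 944 CPM. Hspa8, also constitutive, was higher at 60 min, at 2750, 2346 and 4192 CPM.

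The promoters of both HSP70 genes are shown because the pair is nearly identical, with capitals for GAANNTTC, the core of the heat shock element, searched on both strands. Hspa1a lies at chr17:34972157-34972306 and Hspa1b at chr17:34959239-34959388, both on the minus strand.
Hspa1a: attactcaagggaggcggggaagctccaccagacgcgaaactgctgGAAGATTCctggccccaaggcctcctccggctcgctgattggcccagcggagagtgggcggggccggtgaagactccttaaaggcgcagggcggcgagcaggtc
Hspa1b: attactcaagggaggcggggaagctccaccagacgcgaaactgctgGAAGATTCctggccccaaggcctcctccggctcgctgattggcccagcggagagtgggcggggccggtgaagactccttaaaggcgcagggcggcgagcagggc
These 150 bases are the same at 149 positions. The transcripts are likewise near copies of each other, so the division of reads between Hspa1a and Hspa1b is uncertain, and the values are best read together. Of the 13 genes in the list, 10 had a promoter window and 8 of those held the motif, against 2582 of all 32851 windows (7.86%). Thinned to 2000 UMIs, Hspa1a was found in 24.3%, 9.43% and 48.3% of members, against 39.2%, 19.0% and 64.1% before thinning. Epithelial cells of the same libraries had thinned shares of 39.6%, 24.8% and 60.2%. The order of the libraries was the same in both cell types, so it is not shown to be particular to endothelium.

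Immediate early genes, most of them transcription factors that cells switch on within minutes of a stimulus, were also highest at 60 min as a list. Of 17 measured, 2 were called higher at 60 min than in the control, Atf3 and Zfp36, and 0 lower, with a median log2 ratio of 0.57 and all 17 above 1. At 15 min, Atf3 and Ier3 were the 2 called lower, with a median of -0.05 over the list. Between the platform intervals, 4 of 17 were called higher at 60 min, with a median of 0.72. Atf3, a stress-induced repressor, measured 607, 283 and 1248 CPM, and Ier3, an inhibitor of cell death, 702, 281 and 1177 CPM. By contrast Fos, the AP-1 subunit, measured 2135, 2084 and 2876 CPM, Jun 1948, 2095 and 2706 CPM, and Egr1 399, 477 and 601 CPM, so the 15 min library was not low across the list. Thinned to 2000 UMIs, Atf3 was found in 33.7%, 23.8% and 61.2% of members, against 45.9%, 40.9% and 77.1% before thinning, and in 43.6%, 29.3% and 39.8% of thinned epithelial cells.

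**Figure D3:**
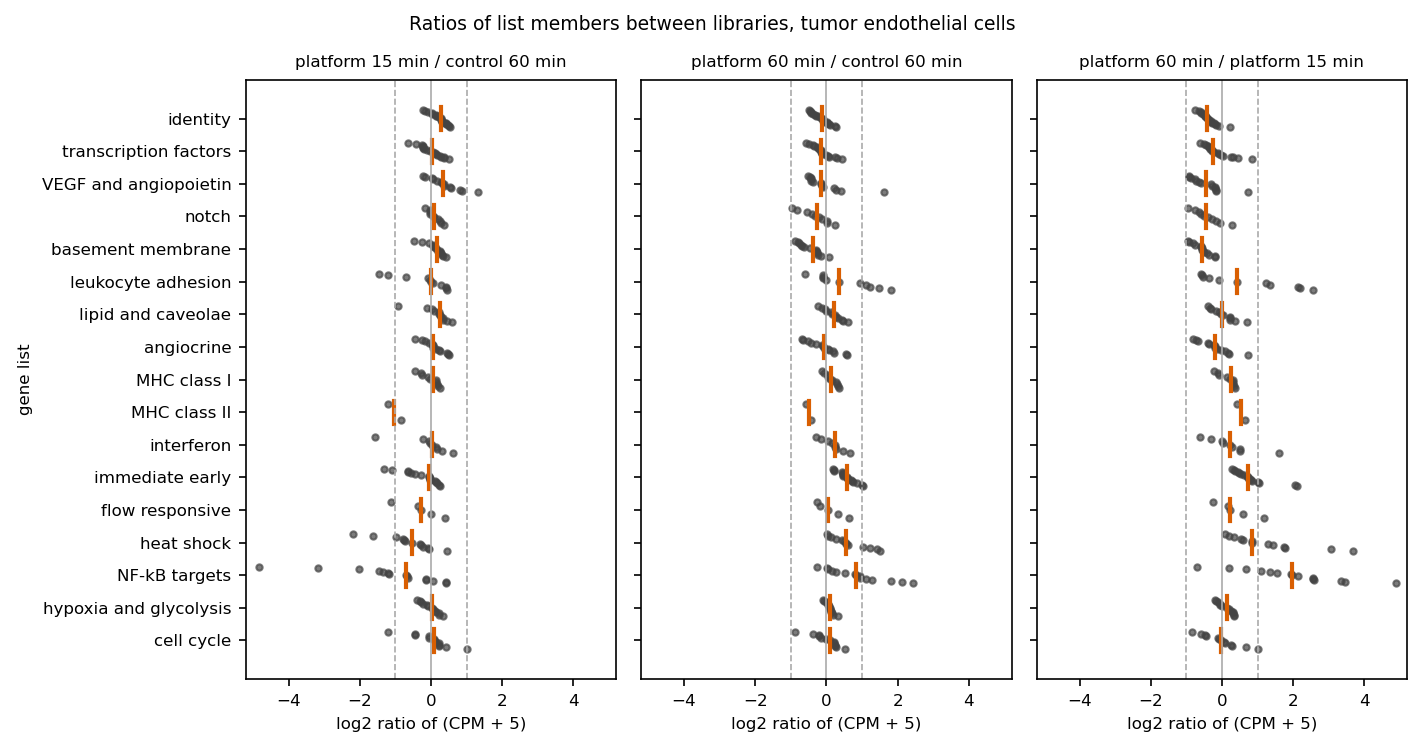
Log2 ratios of the genes of each list between libraries of endothelial cells, on CPM with 5 added; each point is 1 gene, the vertical orange mark is the median of the list and the dashed lines are the 2-fold limits. The NF-kB medians lie at -0.69, 0.84 and 1.97 for 15 min over control, 60 min over control and 60 min over 15 min, and the basement membrane medians at 0.16, -0.38 and -0.56.

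The genes of angiogenic growth ran in another order. Esm1 (chr13:113209659-113218098), endocan, a proteoglycan of VEGF-stimulated tip cells, measured 141 CPM in the control, 361 CPM at 15 min and 187 CPM at 60 min. Its 15 min level was 2.57 times the control level (2.22 to 2.98). Kcne3, a potassium channel subunit and tip cell marker, measured 151, 328 and 107 CPM, and Apln, the apelin ligand of sprouting endothelium, 70.0, 126 and 63.5 CPM. All these tip cell genes were highest at 15 min. Over the 14 measured tip cell markers, 2 were called higher at 15 min than in the control and 0 lower, and between the platform intervals 1 was higher and 1 lower at 60 min, with a median of -0.61. Plaur, the urokinase receptor, was the member higher at 60 min, at 77.4, 39.5 and 97.2 CPM. After thinning, Kcne3 was found in 15.0%, 31.1% and 12.6% of members, against 29.7%, 49.0% and 28.3% before, and in at most 0.880% of thinned epithelial cells. Esm1 was found in 13.1%, 20.9% and 13.0% of thinned members, against 18.7%, 30.4% and 18.6% before, and in at most 0.0880% of thinned epithelial cells.

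The receptor genes given next differed less between libraries than Esm1 and Kcne3. Of 14 measured genes of VEGF and angiopoietin signaling, Esm1 was the 1 called higher at 15 min than in the control. Angptl4, an inhibitor of lipoprotein lipase, was the 1 called higher at 60 min, with 23, 55 and 326 UMIs. Flt1, the VEGF decoy receptor, measured 927, 1035 and 688 CPM, and Nrp1, a VEGF co-receptor, 501, 643 and 350 CPM. The angiopoietin receptor Tek measured 173, 148 and 132 CPM. Of 10 measured Notch genes, 0 were called apart in any pair. With 0.238 to 1.75% of all genes called per direction, 0 of 10 is near the background. The Notch median log2 ratio for 60 over 15 min was -0.45, beside -0.18 for all genes. Notch4, the endothelial Notch receptor, came nearest to the 2-fold limit, at 151, 149 and 74.8 CPM. Its log2 ratio for 60 min over control was -0.97, while the ligand Dll4 measured 186, 225 and 170 CPM.

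Basement membrane genes were lower at 60 min as a group without a single member passing the limit. Of 14 measured, 0 were called apart in any pair, but 0 of 14 lay above 1 for 60 min over 15 min, with a median log2 ratio of -0.56 beside -0.18 for all genes. Against the control the median at 60 min was -0.38, with 1 of 14, Sparc, above 1. Col4a1, a chain of collagen IV, measured 3868 CPM in the control, 4624 CPM at 15 min and 3245 CPM at 60 min. Nid2, which links laminin to collagen IV, measured 290, 300 and 156 CPM, Lama4, the laminin chain of endothelium, 415, 462 and 236 CPM, and Lamb1 481, 510 and 289 CPM. For the last 3 genes the control and 15 min libraries lay together and the 60 min library lay below. These genes and Col4a1 had their highest levels in a shallow subcluster led by Lars2, which held 71 of the 283 control members, 58 of the 247 at 15 min and 53 of the 757 at 60 min. Without it and the other shallow and epithelial-gene cells, the list's medians at 60 min were -0.37 against the control and -0.44 against 15 min. Its part in the level of each gene was not tested.

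In several other lists no gene passed the limit of 2-fold. For the 20 endothelial identity genes, 18 transcription factors, 12 genes of lipid uptake and caveolae, 14 secreted angiocrine factors, 10 genes of MHC class I and 13 of hypoxia and glycolysis, 0 were called apart in any pair. With 0.238 to 1.75% of all genes called per direction, a count of 0 in lists of this size is near the background and is not a result about them. Between the platform intervals the identity genes had a median log2 ratio of -0.41, with 1 of 20 above 1, beside -0.18 for all genes. The VEGF and angiopoietin list had -0.44 and the Notch list -0.45. The factors Erg, Fli1 and Sox17 measured 33.0, 30.2 and 20.7 CPM, 83.1, 109 and 103 CPM, and 124, 106 and 148 CPM. Igfbp7, a secreted protein abundant in tumor vessels, measured 9272, 9406 and 10495 CPM. Of 13 cell cycle genes, 1 was higher and 1 lower at 15 min than in the control, both on low counts. Ccnb2 measured 34.9 CPM at 15 min against 14.8 CPM in the control, and Pcna 18.5 against 49.0 CPM.

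Outside the lists, the genes furthest apart add 3 patterns. Rcan1, an inhibitor of calcineurin, measured 42.1, 42.0 and 151 CPM, Rnd1, a GTPase that takes actin fibers apart, 120, 62.0 and 380 CPM, and Dusp2, a MAP kinase phosphatase, 229, 171 and 589 CPM, so all were highest at 60 min. Gadd45b, Ifrd1 and Noct were lowest at 15 min, at 28.2, 44.1 and 17.9 CPM against 135, 191 and 80.3 CPM in the control. Ptn, a heparin-binding growth factor, and Sema6d, a guidance ligand, were lowest at 60 min, at 472 against 692 and 1141 CPM, and at 197 against 368 and 416 CPM. Both are among the leading genes of the shallow subcluster led by Lars2, whose part in these levels was not tested. Mgp, a matrix protein, was lowest in the control at 24.5 CPM, against 135 and 97.7 CPM. It was found in 17, 31 and 116 members. The other kept cells held more of it, at 154, 181 and 1095 CPM, and their part in the members' levels was not tested. Lars2, a mitochondrial tRNA synthetase, was highest in the control, at 809 CPM against 278 and 229 CPM, where mitochondrial transcripts were also highest.

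Not all of the genes furthest apart can be read as endothelial. Krt8, Krt18, Lalba, Aqp5, Ltf and Chil1 are epithelial or milk genes, and they followed the epithelial transcripts that were highest in control members. Of 10 measured epithelial markers, 8 were called lower at 15 min and 4 lower at 60 min than in the control. Hba-a1 and Hbb-bs, the hemoglobin genes, measured 394 and 582 CPM at 15 min. There, 758 of 769 and 1127 of 1135 UMIs came from 1 cell.

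Clustering of the 1287 members gave 9 subclusters, named only where a list of known markers allowed it. An artery-like subcluster of 96 cells was led by Gja5 and Gja4, the connexins of arteries, and Gja4 measured 1826 CPM there. A cycling-like subcluster of 85 cells carried Mki67 at 402 CPM and Top2a at 478 CPM. A vein-like subcluster of 329 cells was led by Csf3, Selp, Ackr1, Sele and Icam1, with Selp at 1297 CPM and Ackr1 at 223 CPM. A lymphatic-like subcluster of 27 cells, of which 1, 7 and 19 came from the control, 15 min and 60 min libraries, carried Ccl21a, Mmrn1 and Prox1, the master regulator of lymphatic identity, at 275 CPM. Ccl21a itself was read in 6 cells, all of them at 60 min, with 297 of 706 UMIs in 1 cell, while Vwf and Ackr1 were read in 59.3% and 51.9% of the 27 cells. In 3 of 5 other clusterings only 11 lymphatic-like cells remained, 40.7% of the 27 and all from the 60 min library.

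The remaining subclusters were less certain. A subcluster of 259 cells led by Igf1, Trp53i11 and Cxcr4 held 8 of 15 tip cell markers and was tip-like at this setting (resolution 0.6). No tip-like subcluster formed at resolution 0.3, or at 0.6 without the genes that set the libraries apart, whereas at resolution 1.0 without them 245 tip-like cells included 77.2% of the 259. Of the cells without a name, 166 were led by Rgs5, Cxcl9 and Ramp3. Rgs5, a pericyte marker, was read in 11.4% of these 166 cells. The pericyte list scored highest for them, but 2 of its 10 markers reached the limits for a name, where 3 were needed. A pair of shallow subclusters of 182 and 87 cells, with medians of 4800 and 2946 UMIs and of 11.3% and 13.5% mitochondrial UMIs, was led by Lars2 and by Gm26917. A further 56 cells carried epithelial genes, with Krt18 at 1852 CPM and Epcam at 1638 CPM. Control, 15 min and 60 min members numbered 71, 58 and 53 in the first shallow subcluster, 47, 3 and 37 in the second, and 16, 9 and 31 in the one with epithelial genes. Esm1 was not highest in the tip-like cells but in the artery-like ones, at 1196 CPM against 293 CPM. Kcne3 measured 19.0 CPM in the artery-like cells and 180 CPM in the tip-like cells. In the unnamed subcluster led by Rgs5, Kcne3 was higher still, at 329 CPM. Artery-like cells made up 8.83% of control members, 13.4% of those at 15 min and 5.02% of those at 60 min. Clustered without the genes that set the libraries apart, 176 artery-like cells made up 14.1%, 17.4% and 12.3%. The part of artery-like cells in the Esm1 levels was not tested.

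**Figure D4:**
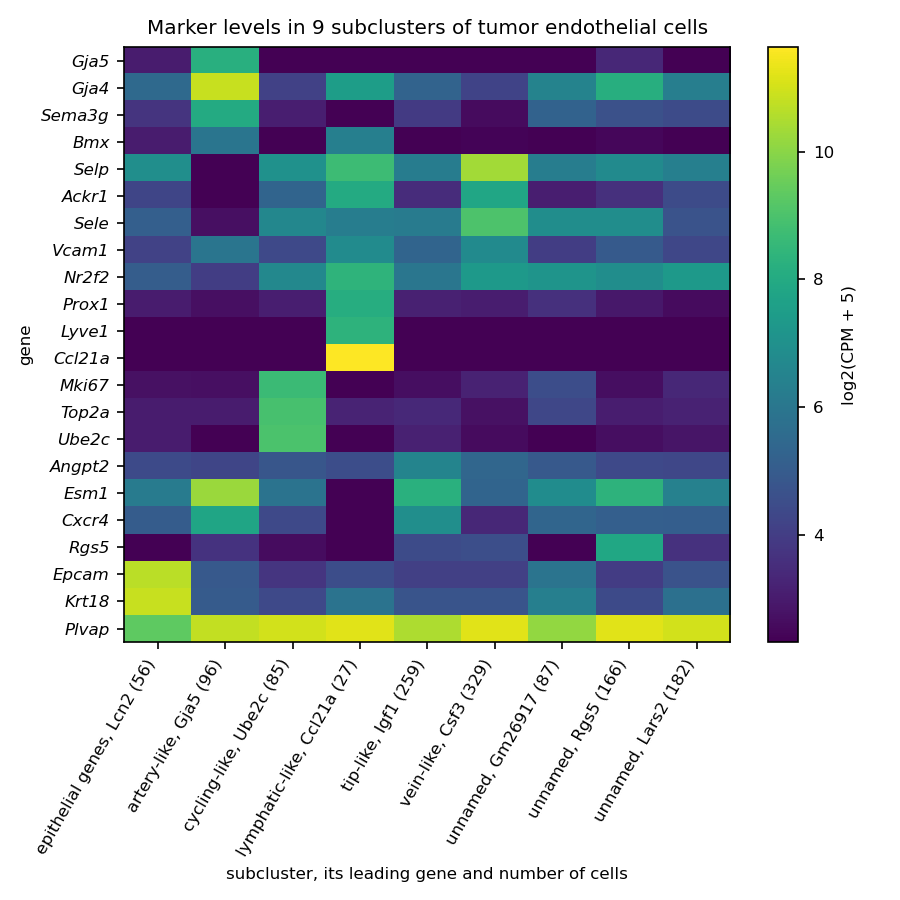
Levels of marker genes in the 9 subclusters of the endothelial cells, with genes in rows and subclusters in columns, each with its leading gene and number of cells; the color gives log2 of CPM with 5 added. Gja4 reaches 1826 CPM in the artery-like column, Selp 1297 CPM in the vein-like column and Krt18 1852 CPM in the column with epithelial genes.

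The genes that lead the vein-like subcluster are those that differed between libraries, so its size could not be compared directly. The members were therefore clustered again without the inducible lists, the adhesion list and every gene called apart, 204 genes in all. A vein-like group still formed, from 2 clusters among whose leading genes was Nr2f2, the venous transcription factor. It held 93.0% of the earlier vein-like cells, and the lymphatic-like subcluster was made of the same 27 cells as before. It took in 48 control cells, 51 at 15 min and 278 at 60 min, or 16.96% (12.8 to 21.9%), 20.6% (15.8 to 26.2%) and 36.7% (33.3 to 40.3%) of the members. The 60 min share was 2.17 times the control share (1.59 to 3.01) and 1.78 times the 15 min share (1.32 to 2.45), and the 15 min share was 1.22 times the control share (0.805 to 1.84). In 5 other clusterings the first ratio lay between 2.18 and 2.65. The other ratios did not keep their size, and at the finest resolution with the same genes left out the 60 and 15 min shares were 21.5% each.

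Within this vein-like group, Selp measured 672 CPM in the control, 465 CPM at 15 min and 1394 CPM at 60 min, and in all other members 78.4, 30.5 and 104 CPM. Icam1 measured 845, 269 and 1316 CPM in vein-like cells and 179, 73.6 and 343 CPM in the others. Both genes were therefore higher in vein-like cells in every library, and both kept the order of 60 min over control over 15 min inside and outside the group. Ackr1 differed from them in the other members, where it measured 15.5, 20.6 and 19.9 CPM, against 126, 108 and 228 CPM in vein-like cells.

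Nfkbia measured 1453, 341 and 1958 CPM in vein-like cells and 681, 389 and 1194 CPM elsewhere. Hspa1a measured 591, 99.4 and 1346 CPM in vein-like cells and 454, 103 and 1393 CPM elsewhere, nearly the same in both. For 60 min over 15 min the NF-kB list had 11 of 15 genes called higher in vein-like cells, with a median log2 ratio of 2.27, and 12 of 16 in the others, with a median of 1.88. For 60 min over control, 4 genes were called higher and 1 lower in each, with medians of 0.43 and 0.86. The shallow subcluster led by Lars2 in the first clustering lacked this contrast. There, 0 of 8 NF-kB genes were called higher for 60 over 15 min, with a median of 0.11. The median for 60 min over control was 0.21. In the Rgs5-led, artery-like, tip-like and vein-like subclusters of the first clustering, the medians for 60 over 15 min lay between 1.42 and 2.02. For the immediate early list, 0 of 18 genes were called higher at 60 min than in the control in vein-like cells and 6 lay above 1, with a median of -0.031. In the others 4 of 17 were called higher and 16 lay above 1, with a median of 0.78. The heat shock list had 8 of 13 genes above 1 in vein-like cells, with a median of 0.13, and all 13 in the others, with a median of 0.66. In the subcluster led by Lars2, 6 of 13 lay above 1, with a median of -0.10. The difference between the groups of cells was not tested. Esm1 showed the reverse, at 19.8, 22.6 and 46.2 CPM in vein-like cells and 177, 461 and 278 CPM in the others.

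**Figure D5:**
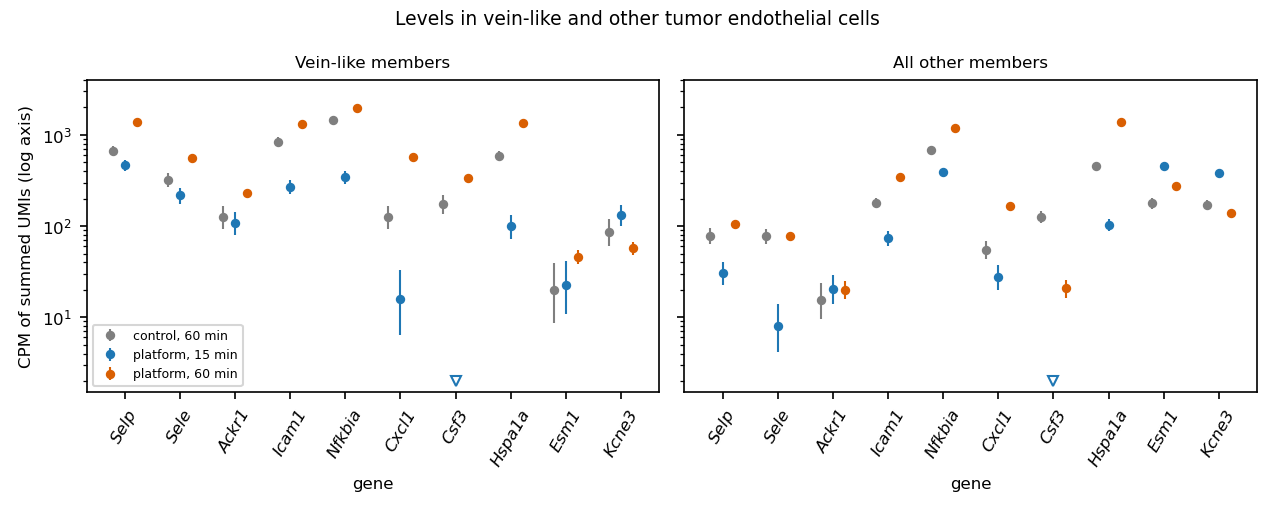
Levels of named genes by library, in CPM on a log axis, in the vein-like cells clustered without the genes that set libraries apart and in all other endothelial cells; bars are exact 95% Poisson intervals and open triangles mark 0 UMIs. Selp is at 672, 465 and 1394 CPM in vein-like cells and at 78.4, 30.5 and 104 CPM in the others, while Hspa1a is nearly equal in both.

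The same rule, applied to the kidney libraries, took 558 control cells (9.48% of those kept), 389 of the 15 min interval (4.64%) and 2398 of the 60 min interval (24.1%). In kidney too the 60 min library was highest. Tissue, sex, strain, age and library differ together, so their effects cannot be told apart, and a gene was called only when its lowest library of one tissue lay at least 2-fold above the highest of the other. By that rule 353 of 6843 genes (5.16%) were higher in the tumor and 482 (7.04%) in the kidney. With 200 to 3000 genes and at most 25% mitochondrial UMIs in both tissues, 309 were higher in the tumor and 481 in the kidney. Basement membrane genes were higher in tumor endothelium for 10 of 14, with Col4a1 at 3868, 4624 and 3245 CPM against 546, 640 and 594 CPM. Cell cycle genes were higher for 11 of 13. Vim, the intermediate filament vimentin, measured 4135 to 5530 CPM against 99.4 to 106 CPM.

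Of 11 measured venous markers, 5 were higher in the tumor: Selp, Ackr1, Vwf, Lrg1 and Csf2rb. Ackr1 had 0 UMIs in all 3 kidney libraries. The kidney was higher for 8 of 10 genes of MHC class I and 12 of 16 interferon-induced genes, among them Rsad2, an antiviral enzyme, at 14.8, 13.3 and 13.2 CPM in the tumor and 2415, 3004 and 2428 CPM in the kidney. Icam1 in the kidney measured 731, 167 and 394 CPM, and Hspa1a 4463, 944 and 4621 CPM. For both genes the 15 min library was thus the lowest in kidney as in tumor, while the order of the other libraries was reversed for Icam1.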

How the data were processed

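The files hold UMI counts per gene and cell as deposited. The authors aligned 10x v3 reads with Cell Ranger 3.1.0 to mm10 and equalised reads per cell across the libraries of a tissue with Cell Ranger Aggr, which reduces depth differences between libraries. Libraries were read from the barcode suffix. The study's gene and mitochondrial limits were applied, and no doublet caller was run; cells above 4000 genes were removed as possible doublets. Member counts were summed per library (1756088, 1950477 and 6520109 UMIs for control, 15 min and 60 min), scaled to CPM and compared by the ratio of CPM + 5. Members of gene lists were named, with the 10 genes furthest apart in each direction (mean of 50 CPM or more), the 20 with the highest ratio over other tumor cells and the leading genes of subclusters (50 CPM, 10% of cells, limits set after seeing the data). Leiden clustering used scanpy 1.11.5 and igraph 0.11.9 with 2000 variable genes, 20 components, 15 neighbours and resolution 0.6. Intervals came from scipy 1.17.1. Gene positions are GENCODE's for GRCm38, the assembly of mm10. Scripts were tested on simulated data. Members and lists were chosen with earlier results of these data known.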

Additional observations from a re-analysis of the deposited data

Results flagged for a closer look

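For 5 genes among the named ones, the endothelial cells of the 15 min and 60 min platform intervals lay on opposite sides of the control, each by at least 2-fold; the difference was not tested, and both ratios share the control library. Icam1 had a log2 ratio to the control of -1.46 at 15 min and 1.11 at 60 min. Cxcl1 had -1.34 and 2.11, and Atf3 had -1.09 and 1.03. Hspa1a had -2.20 and 1.49, and its near copy Hspa1b -1.62 and 1.43. All these ratios kept their direction under 14 alternatives, but some no longer reached 2-fold. At 15 min Atf3 lay at -0.38 without vein-like members and Cxcl1 at -0.62 without the upper gene limit, each the value nearest to 0. At 60 min Atf3 lay under the limit in 6 alternatives, with a lowest value of 0.69, and Icam1 in 5, with a lowest value of 0.75.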

How the results depend on the processing

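No paired analysis was possible because each condition is 1 library, so no replicate could be left out or blocked. The 60 min over control share ratio of 2.55 was 3.53 with a mitochondrial limit of 10% and 3.20 in cells of at least 5000 UMIs, and the 15 min ratio was 1.16 with the 10% limit. Genes called higher at 15 min than in the control (14) became 27 without vein-like members, 26 and 6 with 1 and 20 CPM added, 54 without a filter on low values, 4 at a mean of 100 CPM and 7 when centred on the median gene. Those lower (72) became 39 with 20 CPM added, 132 without the filter and 26 at 100 CPM. Genes higher at 60 min than in the control (26) became 53 without the filter and 15 at 100 CPM. Those lower (15) became 31 without the upper gene limit, 25 without vein-like members, 31 and 7 with 1 and 20 CPM added, 36 without the filter, 5 at 100 CPM, 30 as a mean over cells and 29 without mitochondrial and ribosomal genes. Against 15 min, genes higher at 60 min (103) became 43 at 100 CPM, and those lower (18) became 37 without the upper gene limit, 50 and 7 with 1 and 20 CPM added, 42 without the filter, 7 at 100 CPM and 7 centred. At resolution 1.0, 16 subclusters formed. The vein-like 15 min over control ratio was 0.755 with all genes, 0.151 with all genes at resolution 0.3 and 2.17 at resolution 1.0, and the 60 over 15 min ratio 2.88, 17.6 and 1.00.

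Without vein-like members, the venous list's median log2 ratio for 60 min over control was -0.040 (0.51 with all) and Ackr1 for 60 over 15 min -0.037. Epithelial and hemoglobin genes changed sign with the cells kept. For 15 min over control, Aqp5 was 0.20 without the shallow and epithelial-gene subclusters, Chil1 1.25 without the upper gene limit, 0.42 without members of 3 or more epithelial UMIs and 0.23 without those subclusters, and for 60 over 15 min Chil1 was -1.23, -1.03 and -0.89. Hba-a1 for 15 min over control was -0.94 with the rule on thinned cells and -0.62 without those subclusters, and for 60 over 15 min 0.13 without them. Hbb-bs was -1.69 and -0.71, and 1.01 and 0.94. Ltf for 15 min over control was 0.27 with 6 UMIs in the rule, 0.31 without the upper gene limit, 0.59 with 10% mitochondrial UMIs, 0.21 on thinned cells, 0.50 without epithelial UMIs and 0.57 without those subclusters, and for 60 over 15 min -0.13, -0.85 and -0.82. The causes were not tested. Of 924 list medians under the alternatives, 921 moved little, 2 moved and 1 reversed. Of 1288 values of named genes, 1203 moved little, 61 moved and 24 reversed. Selections without vein-like, shallow or epithelial-gene cells, those of at least 5000 UMIs and the clusterings with all genes were added after seeing the data.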

Other observations

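The subcluster of 27 lymphatic-like cells was mixed. Lyve1, a hyaluronan receptor of lymphatic vessels, was read in 11.1% of its cells, whereas Mgp was read in 55.6% and Vwf, the clotting factor carrier, in 59.3%. Whether the same cells carried both kinds of gene was not examined.

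Interferon-induced genes differed little between the tumor libraries. Of 9 measured, Irf1, a transcription factor that NF-kB also switches on, was the 1 called lower at 15 min than in the control, at 140, 44.1 and 145 CPM. Isg15 measured 154, 157 and 184 CPM, and Bst2 210, 201 and 248 CPM. Among genes that respond to blood flow, Klf2 measured 956, 1254 and 1473 CPM, and Hmox1, heme oxygenase, 66.6, 27.7 and 69.2 CPM, the 1 of 5 called lower at 15 min.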
